A study of Mus musculus with 8 samples.

Results

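Telomerase and shelterin are the complexes that lengthen and cover the ends of chromosomes, and the expression of 10 of their genes was followed after depletion of members of the HIRA histone chaperone complex in mouse embryonic stem cells (ESCs). The genes were taken by symbol from the 55418 genes in the count tables, as a list of complex members and not by a threshold on their values. They comprised 5 telomerase genes (Tert, Tep1, Dkc1, Nop10 and Nhp2) and 5 shelterin genes (Terf1, Terf2, Tinf2, Acd and Pot1a). RNA-seq covered 8 libraries in 4 groups of 2, namely control ESCs and ESCs depleted of Hira, of Ubn1 or of Ubn2. All groups were E14 ESCs, a mouse line given the strain label 12910la, grown on gelatin in serum with LIF and transfected with the pSuper puro plasmid. The plasmid carried an shRNA against Hira, Ubn1 or Ubn2, or in control ESCs, which the labels call wild type, an shRNA against luciferase. Every group was under puromycin for 3 days, so each library represents a pool of selected cells of 1 line rather than a knockout clone. Nothing in the labels says that the libraries of a group came from separate cultures, so p-values measure only the spread between these libraries, which may be technical.

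Telomerase copies telomeric repeats onto chromosome ends from an RNA template, Terc, with the reverse transcriptase Tert. Terc is bound by the box H/ACA proteins Dkc1, Nop10, Nhp2 and Gar1, which also bind the small nucleolar RNAs that guide pseudouridylation of ribosomal RNA. Shelterin coats telomeric DNA, where Terf1 and Terf2 hold the duplex repeats, Pot1 proteins hold the single-stranded overhang, and Tinf2 and Acd link the 2 kinds of DNA contact. It hides chromosome ends from DNA damage signalling, and through Acd it recruits telomerase. Mouse ESCs carry active telomerase. HIRA, in which Hira works with Ubn1 or Ubn2 and Cabin1, deposits the histone variant H3.3.

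Reads counted on genes totalled 19710040 to 32706053 per library, and the 10 genes drew between 469 and 7685 counts in single libraries, so none was near the detection floor of 3 counts. All 10 passed the filter on low counts in every comparison. Hira fell from 89.4 and 97.6 CPM (counts per 1000000 reads on genes, with library totals scaled by the TMM method) in control ESCs to 10.0 and 10.4 CPM after its own depletion, -3.22 on the log2 scale. In their own depletions, Ubn1 and Ubn2 changed by -1.03 and -0.90 on the log2 scale, so a larger remainder of these transcripts was present. In ranges over the libraries of a group, the 7 ESC markers summed to 6244 to 6426 CPM in control ESCs and were below that after every depletion, at 5567 to 5617 CPM for Hira, 5483 to 5594 CPM for Ubn1 and 5256 to 5439 CPM for Ubn2, where Dppa5a and Tdgf1 were called lower.

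Markers of other cell types also moved with the groups, with 6 markers per list and sums given in the order control, Hira, Ubn1 and Ubn2. Heart and skeletal muscle markers summed to 34.3 to 42.4, 19.4 to 30.7, 43.4 to 43.5 and 208.4 to 320.1 CPM. Of these, 5 were called higher and 1 lower after Ubn2 depletion, and Myl7 and Ttn were called lower after Hira depletion. Neural markers summed to 128.1 to 134.9, 271.6 to 283.2, 166.8 to 188.2 and 131.8 to 136.9 CPM. Of these, 4 were called higher after Hira depletion, 1 higher after Ubn1 depletion, and 2 higher and 1 lower after Ubn2 depletion. Two-cell-like markers, which were higher in every depletion, summed to 3.55 to 7.84, 16.7 to 22.5, 14.0 to 14.5 and 25.7 to 36.1 CPM, and Zfp352 was at 0 in both control libraries. Of the two-cell-like markers, 4, 3 and 5 were called higher after Hira, Ubn1 and Ubn2 depletion. Primitive endoderm markers summed to 14.8 to 16.9, 16.04 to 16.13, 9.03 to 10.8 and 14.4 to 16.6 CPM. Of these, Gata6 and Pdgfra were called lower after Ubn1 depletion and Sox17 was called higher after Hira depletion. Trophoblast markers summed to 35.1 to 37.5, 39.5 to 48.7, 37.0 to 38.2 and 39.4 to 41.5 CPM, with Cdx2 and Hand1 called higher after Hira depletion. Fibroblast markers summed to 39.4 to 43.1, 39.3 to 44.2, 35.1 to 45.4 and 26.8 to 27.5 CPM, with 1 called higher and 1 lower after Hira depletion and 1 higher and 2 lower after Ubn2 depletion. Of these, Lum and Dcn were at 0 in both libraries of every group except Ubn2. Over all genes tested, 10.8% were called higher and 5.40% lower after Hira depletion, and 9.59% higher and 8.75% lower after Ubn2 depletion. After Ubn1 depletion 3.09% were called in either direction. The part of these other cell states in the results below was not tested, and in bulk RNA fewer cells of a type and less RNA per cell cannot be told apart.

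Divided by exon length, the transcripts of the H/ACA proteins were the most abundant of the 10 in control ESCs. Nhp2 stood at 193.6 ± 11.2 CPM per kb (mean ± SD, n = 2), Nop10 at 111.5 ± 1.27 and Dkc1 at 64.1 ± 7.73. The duplex-binding shelterin gene Terf1 followed at 23.1 ± 2.14 CPM per kb, then Tinf2 at 13.6 ± 1.34, Acd at 10.3 ± 0.259, Terf2 at 10.0 ± 0.128 and Pot1a at 6.43 ± 0.190. Tert, at 5.12 ± 0.619, and Tep1, at 4.34 ± 0.272 CPM per kb, were the lowest. Acd and Terf2 did not differ beyond their spread, and neither did Tert and Tep1, whereas the other neighbours in this order were separated by more than their SDs. The 3 H/ACA genes kept the top 3 places in every group. Pot1a lay above Tert in control ESCs but below it after Hira depletion, at 4.05 ± 0.0248 against 4.85 ± 0.146 CPM per kb. The pair did not differ beyond their spread after Ubn2 depletion, at 4.36 ± 0.393 for Pot1a against 4.61 ± 0.260 for Tert. Neither did they after Ubn1 depletion, at 5.22 ± 0.271 against 5.13 ± 0.567. Exon length here is the union of annotated exons, which overstates the length of genes with many isoforms.

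**Figure D1:**
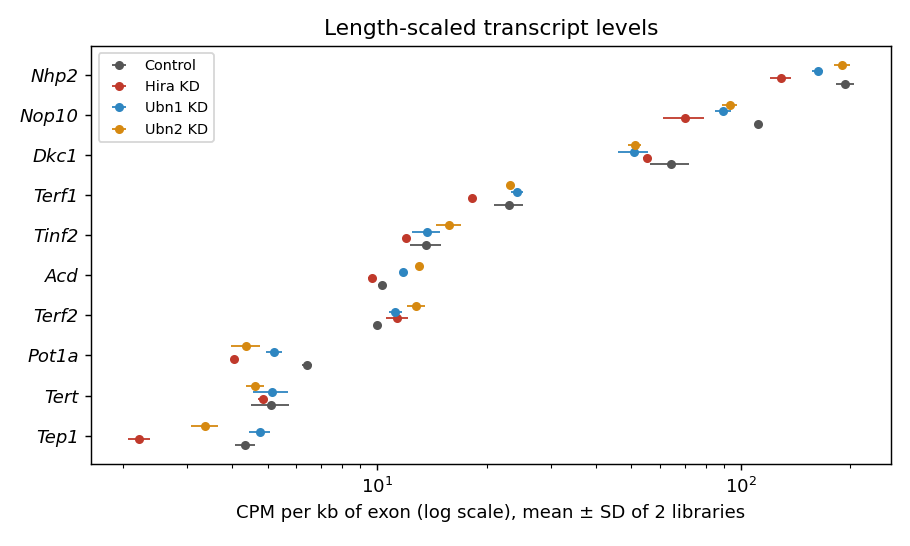
Length-scaled level of each transcript on a log axis (CPM per kb of exon), with points for the mean of the 2 libraries of a group and bars for the SD. Nhp2, Nop10 and Dkc1 lie highest in every group, and Tep1 after Hira depletion, at 2.22 CPM per kb, is the lowest point.

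The first question was which of these transcripts changed when each subunit was depleted. A gene was called downregulated or upregulated at an adjusted p under 0.05 and a change over 1.5-fold, using the quasi-likelihood test of edgeR and p-values adjusted over all genes tested (Benjamini-Hochberg). After Hira depletion 4 of the 10 were downregulated, namely Tep1, Nop10, Nhp2 and Pot1a, where 5.40% of all genes tested were. None was upregulated, where 10.8% of all genes were. By the adjusted p alone 6 of the 10 were lower, with Dkc1 and Terf1 in addition, against 17.3% of all genes. The median log2 fold change of the 10 was -0.29, beside 0.01 over all 19035 genes tested. Without Hira KD replicate 1 the number downregulated was 2, since Nop10 and Nhp2 then missed 1.5-fold.

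After Ubn1 depletion 0 of the 10 were called, where 3.09% of all genes were, and DESeq2 also called 0. By edgeR's adjusted p alone 2 were lower, Dkc1 and Nop10, against 3.62% of all genes, and 4 had an unadjusted p under 0.05. After Ubn2 depletion 0 of the 10 were called in edgeR or DESeq2, although 18.3% of all genes were called in edgeR, and 7 had an unadjusted p under 0.05. By the adjusted p alone 4 were lower (Tep1, Dkc1, Nop10 and Pot1a) against 19.1% of all genes, and 2 were higher (Terf2 and Acd) against 20.0%. The median log2 fold change of the 10 was 0.00 after Ubn1 depletion and -0.09 after Ubn2 depletion. The 3 depletions were set against the same 2 control libraries, so their changes are not independent of each other.

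**Figure D2:**
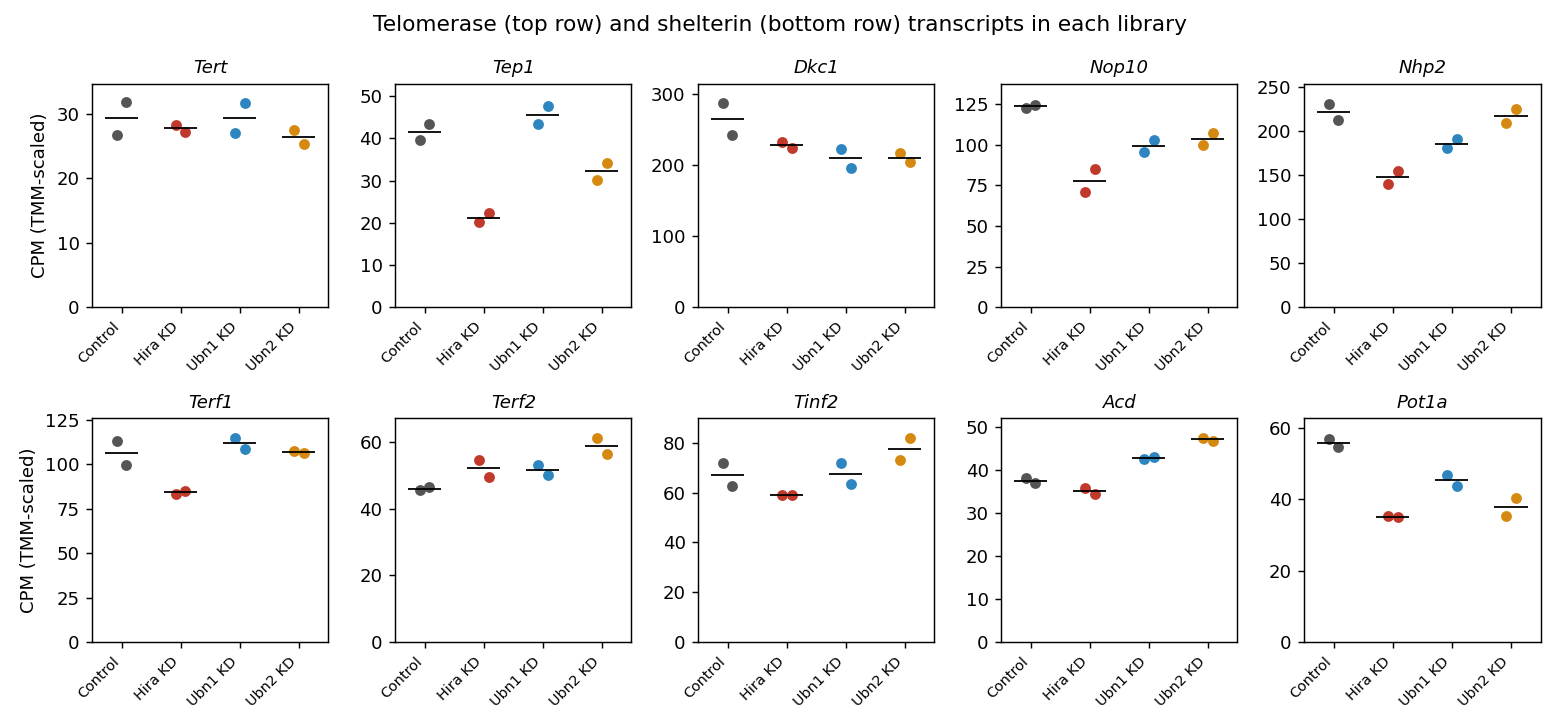
Level of each transcript in every library (CPM, linear axes from 0), with 1 point per library and a line at the group mean. Both Hira-depleted libraries lie below both control libraries for Tep1, Nop10, Nhp2 and Pot1a, and also for Dkc1, Terf1, Tinf2 and Acd, which were not called. The points of Tert overlap in all groups.

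Tert, the catalytic subunit that is usually limiting for telomerase activity, lies on chromosome 13 (73626911-73649843, plus strand; GRCm38 here and below). It was at 26.8 and 31.8 CPM in control ESCs, 28.4 and 27.2 CPM in Hira-depleted ESCs, 27.1 and 31.7 CPM in Ubn1-depleted ESCs and 27.5 and 25.4 CPM in Ubn2-depleted ESCs. The groups overlapped, except that the second Ubn2-depleted library was below every control value. The log2 fold change was -0.10 after Hira depletion (95% interval -0.33 to 0.13, adjusted p = 0.532), -0.00 after Ubn1 depletion (-0.25 to 0.24, adjusted p = 0.992) and -0.16 after Ubn2 depletion (-0.39 to 0.08, adjusted p = 0.287). No change of Tert was detected between these libraries, and the intervals lie within 1.5-fold in either direction. They rest on a spread between libraries that may be technical, so they do not bound the change between separate cultures.

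Tep1, a large protein that binds telomerase RNA and is also a component of the vault particle, had the largest change of the 10. It lies on chromosome 14 (50824059-50870560, minus strand). Its level was 39.7 and 43.4 CPM in control ESCs, 20.2 and 22.2 CPM after Hira depletion, 43.3 and 47.7 CPM after Ubn1 depletion and 30.2 and 34.2 CPM after Ubn2 depletion. Hira-depleted libraries were the lowest, the Ubn2-depleted ones lay between them and control, and the Ubn1-depleted ones overlapped with control. The log2 fold change was -0.99 ± 0.11 (SE) after Hira depletion (adjusted p = 5.5e-07), a fall by 49.8%. It was called under all 12 alternative settings, at -1.07 to -0.92, of which the adjusted p alone could not lose the call. After Ubn2 depletion the change was -0.37 ± 0.10 (adjusted p = 0.00525), and the adjusted p rose to at most 0.0787 with single libraries left out. After Ubn1 depletion it was 0.13 ± 0.11 (adjusted p = 0.523).

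Of the H/ACA core genes, Nop10 and Nhp2 were downregulated after Hira depletion and Dkc1 was not called. Nop10, the smallest of them, lies on chromosome 2 (112261926-112263269, plus strand) and was at 123 and 125 CPM in control ESCs, 70.6 and 84.8 CPM after Hira depletion, 95.7 and 103 CPM after Ubn1 depletion and 99.9 and 107 CPM after Ubn2 depletion. Every depleted library was below both control libraries, and the Hira-depleted ones were the lowest. Fitted log2 fold changes were -0.69 ± 0.09 after Hira depletion (adjusted p = 3.06e-06), -0.32 ± 0.09 after Ubn1 depletion (adjusted p = 0.0290) and -0.26 ± 0.07 after Ubn2 depletion (adjusted p = 0.00457). Without Hira KD replicate 1 the first of these was -0.56. With single libraries left out, the adjusted p reached 0.255 for Ubn1 and 0.0822 for Ubn2.

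Nhp2, which docks on the same protein core, lies on chromosome 11 (51619735-51623714, plus strand). It was at 231 and 213 CPM in control ESCs, 140.5 and 155 CPM after Hira depletion, 181 and 191 CPM after Ubn1 depletion and 209 and 226 CPM after Ubn2 depletion. Both the Hira-depleted and the Ubn1-depleted libraries were below control, whereas the Ubn2-depleted ones overlapped with it. The change from control on the log2 scale was -0.60 ± 0.08 after Hira depletion (adjusted p = 5.41e-06) and -0.26 ± 0.09 after Ubn1 depletion (adjusted p = 0.0829). After Ubn2 depletion it was -0.03, with an interval of -0.18 to 0.12. The change after Hira depletion was close to the 1.5-fold threshold, at -0.55 without control replicate 1 and -0.54 without Hira KD replicate 1.

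Dkc1, the pseudouridine synthase dyskerin, lies on the X chromosome (75095854-75109777, plus strand). Its level was 287 and 242 CPM in control ESCs, 232 and 224 CPM after Hira depletion, 223 and 195 CPM after Ubn1 depletion and 217 and 204 CPM after Ubn2 depletion. All depleted libraries were below both control libraries, which themselves lay far apart. Against control, the log2 fold change was -0.23 ± 0.08 after Hira depletion (adjusted p = 0.0358), -0.34 ± 0.10 after Ubn1 depletion (adjusted p = 0.0321) and -0.33 ± 0.08 after Ubn2 depletion (adjusted p = 0.00227), each short of 1.5-fold. Leaving out single libraries raised these adjusted p to at most 0.517, 0.588 and 0.0665.

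Gar1, the remaining H/ACA core protein, was higher than control in all depletions by the adjusted p. It was at 57.4 and 52.5 CPM in control ESCs, 64.6 and 65.9 CPM after Hira depletion, 67.9 and 72.4 CPM after Ubn1 depletion and 87.4 and 79.2 CPM after Ubn2 depletion, with every depleted library above both control libraries. Gar1 was upregulated after Ubn2 depletion (log2 fold change 0.60 ± 0.08, adjusted p = 5.78e-06), where 9.59% of all genes were called higher. This call rested on a change close to 1.5-fold, which was 0.53 without Ubn2 KD replicate 1 and 0.54 without control replicate 2. After Hira and Ubn1 depletion Gar1 was higher by the adjusted p alone, at 0.23 (adjusted p = 0.0372) and 0.35 (adjusted p = 0.0251), and 17.6% of all genes were higher after Hira depletion by that rule. Wrap53, which carries telomerase RNA to Cajal bodies, was also above control in every depleted library. It rose from 21.1 and 21.6 CPM in control ESCs to 32.1 and 35.8 CPM after Ubn2 depletion (0.67 ± 0.11, adjusted p = 4.64e-05), and it was at 0.34 on the log2 scale after Hira depletion (adjusted p = 0.0251) and 0.45 after Ubn1 depletion (adjusted p = 0.0154). Terc itself drew 13 to 30 counts per library. It lacks a poly(A) tail and the libraries were made with an mRNA kit, so its log2 fold changes of 0.68, 0.30 and 0.77 after Hira, Ubn1 and Ubn2 depletion, with adjusted p of 0.266, 0.791 and 0.198, do not measure the telomerase RNA pool.

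**Figure D3:**
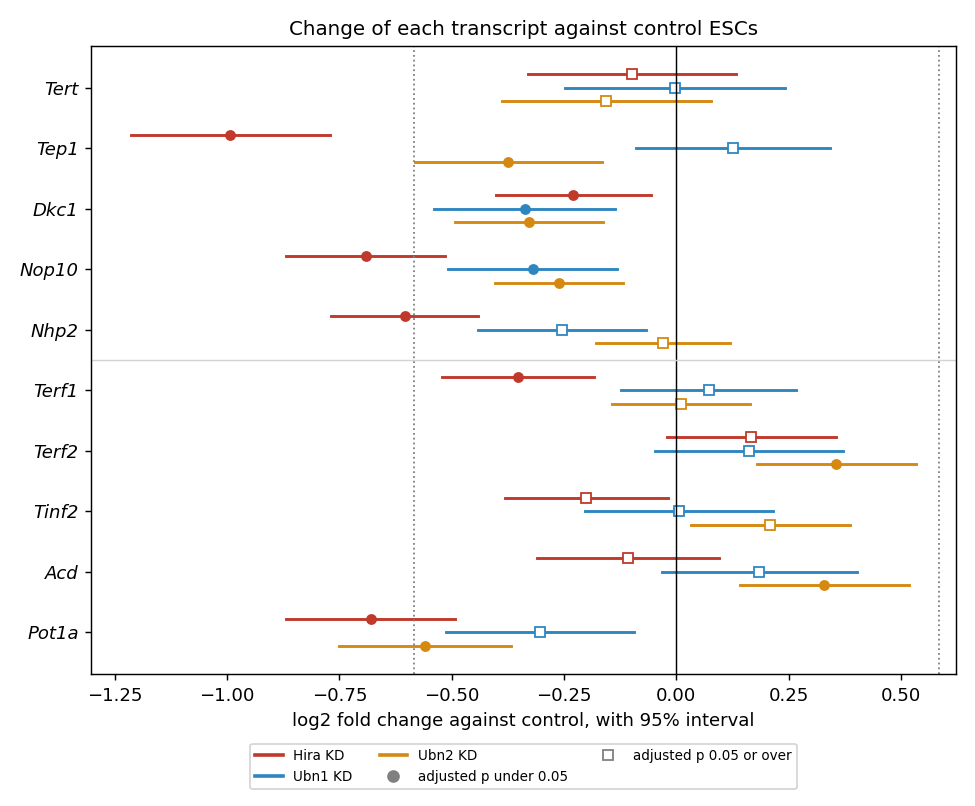
Log2 fold change of each transcript against control for the 3 depletions, with bars for the 95% interval, filled circles for an adjusted p under 0.05 and open squares otherwise, and dotted lines at 1.5-fold. Tep1 after Hira depletion lies farthest from 0, at -0.99, and the points right of 0 with an adjusted p under 0.05 are Terf2 and Acd after Ubn2 depletion.

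Of the shelterin genes, Pot1a was the one downregulated after Hira depletion. Pot1a, the protein on the single-stranded overhang that keeps ATR signalling off telomeres, lies on chromosome 6 (25743737-25809246, minus strand). It was at 56.9 and 54.5 CPM in control ESCs, 35.3 and 35.0 CPM after Hira depletion, 46.9 and 43.5 CPM after Ubn1 depletion and 35.4 and 40.2 CPM after Ubn2 depletion. All depleted libraries were below both control libraries, and the Hira-depleted and Ubn2-depleted groups lay nearly level. On the log2 scale, the change was -0.68 ± 0.09 after Hira depletion (adjusted p = 7.09e-06). It was called under all 12 alternative settings, at -0.72 to -0.66, of which the adjusted p alone could not lose the call. It was -0.56 ± 0.09 after Ubn2 depletion (adjusted p = 5.6e-05), just short of 1.5-fold, and passed it without control replicate 2 or without Ubn2 KD replicate 2, with -0.65 the lowest value. After Ubn1 depletion it was -0.30 ± 0.10 (adjusted p = 0.0642).

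Pot1b, the second mouse Pot1 protein, which limits resection of the telomeric 5′ end, was much lower, at 10.4 to 13.2 CPM over the 8 libraries. Its log2 fold changes were -0.06, -0.03 and 0.02 after Hira, Ubn1 and Ubn2 depletion, with the widest interval, -0.39 to 0.27, after Hira depletion. How reads matching both paralogs were counted is not given in the sources used here.

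Terf1 lies on chromosome 1 (15805646-15844052, plus strand) and was at 113 and 99.4 CPM in control ESCs, 83.5 and 84.9 CPM after Hira depletion, 115 and 109 CPM after Ubn1 depletion and 108 and 106 CPM after Ubn2 depletion. Hira-depleted libraries were the only ones below both control libraries. The log2 fold change of Terf1 was -0.35 ± 0.08 after Hira depletion (adjusted p = 0.00196, and 0.0514 at most with single libraries left out), 0.07 after Ubn1 depletion (interval -0.12 to 0.27) and 0.01 after Ubn2 depletion (-0.14 to 0.16).

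Terf2, which shapes the protective telomere loop, lies on chromosome 8 (107069400-107096547, minus strand). It was at 45.6 and 46.4 CPM in control ESCs, 54.7 and 49.6 CPM after Hira depletion, 53.0 and 50.0 CPM after Ubn1 depletion and 61.4 and 56.4 CPM after Ubn2 depletion. All depleted libraries were above control, the Ubn2-depleted ones highest. Fitted log2 fold changes were 0.36 ± 0.09 after Ubn2 depletion (adjusted p = 0.00219), 0.17 after Hira depletion (adjusted p = 0.159) and 0.16 after Ubn1 depletion (adjusted p = 0.375). Terf2ip, the RAP1 protein carried by Terf2, was likewise above control in every depleted library, with 0.32 after Hira depletion (adjusted p = 0.0431), 0.14 after Ubn1 depletion (adjusted p = 0.561) and 0.37 after Ubn2 depletion (adjusted p = 0.0143).

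The transcripts of the linking proteins were not called in any comparison. Acd, the TPP1 protein that receives telomerase, lies on chromosome 8 (105695860-105701102, minus strand) and was at 38.2 and 36.8 CPM in control ESCs, 35.8 and 34.5 CPM after Hira depletion, 42.4 and 42.9 CPM after Ubn1 depletion and 47.4 and 46.8 CPM after Ubn2 depletion. Hira-depleted libraries lay below control and the other depleted libraries above it. The log2 fold change of Acd was 0.33 ± 0.09 after Ubn2 depletion (adjusted p = 0.0061), -0.11 after Hira depletion (adjusted p = 0.422) and 0.18 after Ubn1 depletion (adjusted p = 0.317). Tinf2, the TIN2 protein that joins Terf1 and Terf2 to Acd, lies on chromosome 14 (55674689-55681820, minus strand). It was at 72.0 and 62.6 CPM in control ESCs, 59.2 and 59.0 CPM after Hira depletion, 71.9 and 63.4 CPM after Ubn1 depletion and 73.3 and 82.1 CPM after Ubn2 depletion. Its log2 fold changes were -0.20 (adjusted p = 0.0801), 0.01 (adjusted p = 0.983) and 0.21 (adjusted p = 0.0559).

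Both linking genes share exons with a gene on the opposite strand, and the strand setting of the counting is not given in the sources used here. Gmpr2 overlaps 1540 bp, or 31.2%, of Tinf2 exons, and Carmil2 overlaps 1208 bp, or 33.3%, of Acd exons, so reads there cannot be assigned without strand. After Hira depletion Gmpr2 was at -0.41 on the log2 scale (adjusted p = 0.00145). Carmil2 was at -0.36 after Ubn2 depletion (adjusted p = 0.0228), opposite in sign to Acd. For Tep1, Dkc1 and Nhp2 the shared exon length was at most 3.84%, and the other 5 genes shared no exon bases with another gene.

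The next question was whether the depletions differed from each other, which was tested on the depleted libraries directly. Hira was depleted further than Ubn1 or Ubn2, so the subunit and the depth of its depletion cannot be told apart here. Tep1 was lower after Hira than after Ubn2 depletion by -0.60 ± 0.11 on the log2 scale (adjusted p = 0.000824) and was the only one of the 10 called, where 5.61% of all genes were called lower. That call sat at the 1.5-fold threshold and was missed without Hira KD replicate 1 (-0.53), without Ubn2 KD replicate 2 (-0.51) and when only genes with 10 or more counts per library were kept (-0.58). By the adjusted p alone 6 of the 10 were lower after Hira than after Ubn2 depletion, against 17.2% of all genes. The other 5 were Nhp2 at -0.55 (adjusted p = 9.09e-05), Acd at -0.41 (adjusted p = 0.00222), Nop10 at -0.41 (adjusted p = 0.00242), Tinf2 at -0.39 (adjusted p = 0.00189) and Terf1 at -0.34 (adjusted p = 0.00205). Nhp2 passed 1.5-fold without Hira KD replicate 2 (-0.62) or Ubn2 KD replicate 1 (-0.61). Pot1a differed by -0.10 (95% interval -0.31 to 0.11, adjusted p = 0.467) and Dkc1 by 0.12 (-0.04 to 0.28).

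Between Hira and Ubn1 depletion Tep1 was again the only one called, at -1.10 ± 0.12 (adjusted p = 1.38e-07), where 3.16% of all genes were called lower. By the adjusted p alone 5 of the 10 were lower after Hira depletion, against 10.2% of all genes, with Terf1 at -0.40 (adjusted p = 0.00308), Pot1a at -0.36 (adjusted p = 0.0174), Nop10 at -0.35 (adjusted p = 0.0147) and Nhp2 at -0.33 (adjusted p = 0.0158) beside Tep1. Without single libraries the adjusted p of these 4 reached 0.0518, 0.108, 0.359 and 0.244. Between Ubn2 and Ubn1 depletion 0 of the 10 were called in edgeR or DESeq2, where 8.70% of all genes were called in edgeR, and 3 had an unadjusted p under 0.05. Only Tep1 passed by the adjusted p alone, lower after Ubn2 depletion at -0.50 ± 0.11 (adjusted p = 0.00398), against 7.98% of all genes. It passed 1.5-fold without Ubn2 KD replicate 2 (-0.59), and its adjusted p was at most 0.0851 with single libraries left out.

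**Figure D4:**
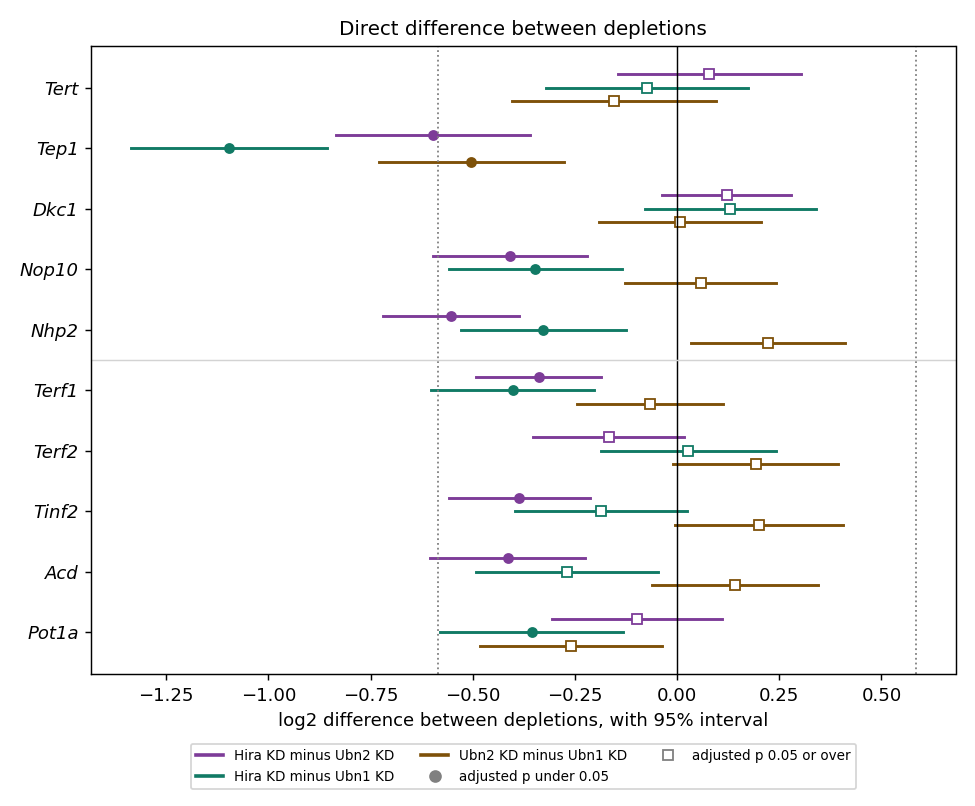
Log2 difference of each transcript between pairs of depletions, with bars for the 95% interval, filled circles for an adjusted p under 0.05 and open squares otherwise, and dotted lines at 1.5-fold. Tep1 lies left of 0 in all 3 comparisons (-0.60, -1.10 and -0.50), whereas the interval of Tert spans 0 in each.

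The sequences upstream of the downregulated genes are shown to let their composition be compared. RefSeq start sites on GRCm38.p6 gave 250 upstream bases for 8 of the 10 genes, in 9 windows because Terf2 had a pair of starts, and Tep1 and Terf1 had no entry. The printed windows are those of Nop10 (chr2:112261676-112261925, plus strand), Nhp2 (chr11:51619523-51619772, plus strand) and Pot1a (chr6:25809219-25809468, minus strand), beside Tert (chr13:73626661-73626910, plus strand), which was not called. Capitals mark the GC box GGGCGG, the CCAAT box and the E-box CACGTG, read on either strand (CCGCCC and ATTGG are the reverse strand of the first and second), and each line runs 5′ to 3′ to the base before the start.
Nop10: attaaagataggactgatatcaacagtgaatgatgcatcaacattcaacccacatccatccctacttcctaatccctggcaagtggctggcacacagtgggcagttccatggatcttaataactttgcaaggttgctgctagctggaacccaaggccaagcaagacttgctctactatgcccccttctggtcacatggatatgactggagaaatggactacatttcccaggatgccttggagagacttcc
Nhp2: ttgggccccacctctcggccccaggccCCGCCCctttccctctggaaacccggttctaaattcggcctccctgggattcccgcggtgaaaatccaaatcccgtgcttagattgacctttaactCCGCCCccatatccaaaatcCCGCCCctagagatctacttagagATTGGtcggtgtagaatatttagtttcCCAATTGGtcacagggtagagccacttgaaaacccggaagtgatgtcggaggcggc
Pot1a: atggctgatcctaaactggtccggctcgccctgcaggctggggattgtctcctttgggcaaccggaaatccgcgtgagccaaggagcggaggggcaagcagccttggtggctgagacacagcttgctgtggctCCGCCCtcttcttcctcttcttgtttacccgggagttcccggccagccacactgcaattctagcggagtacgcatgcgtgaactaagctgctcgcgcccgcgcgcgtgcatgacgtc
Tert: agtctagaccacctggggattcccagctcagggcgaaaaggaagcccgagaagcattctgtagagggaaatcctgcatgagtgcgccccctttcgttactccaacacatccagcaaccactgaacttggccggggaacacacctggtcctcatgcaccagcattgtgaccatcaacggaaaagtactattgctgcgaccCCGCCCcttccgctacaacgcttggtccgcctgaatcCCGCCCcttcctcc
The Nop10 window held none of these motifs and 47.2% G and C. The Nhp2 window held 3 GC boxes and 3 CCAAT boxes, of which the last 2 overlap, at 54.8% G and C. The Pot1a window held 1 GC box at 61.6% G and C, and the Tert window held 2 GC boxes at 57.2%. Over all windows of the same length, the GC box was present in 32.7% of 32851 and in 3 of the 9 windows of these genes. The CCAAT box was in 33.8% and in 4 of 9, and the E-box in 6.02% and in 0 of 9. The pair of Terf2 windows overlap almost fully and hold the same CCAAT box, so that box is counted more than once. The telomeric hexamer TTAGGG, searched on both strands, was in 9.32% of all windows and in 0 of 9, and TATAAA was in 12.4% and in 1 of 9. These are letter matches in a window, and the 3 downregulated genes shown have no marked motif in common.

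Genes of 7 further lists, 57 in all and all tested, were counted. They cover other parts of both complexes, telomere replication, end processing and meiotic attachment, and also box C/D snoRNPs, the vault particle and regulators of Tert transcription, which do not act at telomeres themselves. After Hira depletion 10 of the 57 were called, 6 lower and 4 higher, where 5.40% of all genes tested were called lower and 10.8% higher, so the total was close to that of all genes. Of the 11 other telomerase and shelterin parts, 1 was downregulated, the assembly ATPase Ruvbl2, from 388.4 and 419.5 CPM to 257.4 and 269.2 CPM (log2 fold change -0.63 ± 0.07, adjusted p = 1.81e-06), with -0.58 and no call without control replicate 2. By the adjusted p alone 4 of the 11 were lower and 3 higher, against 17.3% and 17.6% of all genes. The median of the 11 was -0.06. The 7 genes of the CST complex and DNA polymerase α-primase, which refill the telomeric C strand, all had negative values with a median of -0.45. Of these, 5 were lower by the adjusted p alone, against 17.3% of all genes, and 1 was called lower, against 5.40%, the polymerase subunit Pola2, from 99.7 and 106.6 CPM to 60.9 and 66.1 CPM (-0.72 ± 0.08, adjusted p = 9.21e-07).

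Among the 22 genes of telomere end processing and replication, 3 were downregulated and 1 was upregulated after Hira depletion, against 5.40% and 10.8% of all genes, and the median was -0.06. The Ku subunits, which bind DNA ends, led the fall, with Xrcc6 at -0.81 ± 0.08 (adjusted p = 2.27e-07) and Xrcc5 at -0.74 ± 0.08 (adjusted p = 2.64e-07). The Bloom helicase Blm was at -0.60 ± 0.08 (adjusted p = 5.22e-06), from 103.9 and 99.7 CPM to 68.8 and 66.6 CPM, and fell just short of 1.5-fold without control replicate 1 or Hira KD replicate 2, at -0.58 in both. The nuclease subunit Ercc4 rose by 0.61 ± 0.12 (adjusted p = 0.000563), a call lost without control replicate 1 (0.56) or Hira KD replicate 1 (0.58). The 4 core proteins of box C/D snoRNPs, which guide ribosomal RNA methylation beside the H/ACA particles, were all lower by the adjusted p alone, against 17.3% of all genes, with a median of -0.42, and 0 were called.

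After Ubn2 depletion 7 of the 57 were called, 5 higher and 2 lower, where 9.59% of all genes were called higher and 8.75% lower, so the count was no larger than that of all genes. Gar1 and Wrap53 were those of the telomerase and shelterin parts. Blm was at -0.60 ± 0.07 (adjusted p = 1.27e-06), and at -0.58 with no call without control replicate 1. Pif1, a helicase that removes telomerase from ends, was at -0.77 ± 0.11 (adjusted p = 1.53e-05), from 34.4 and 40.7 CPM to 23.4 and 20.8 CPM. Pif1 was at -0.06 after Hira depletion (adjusted p = 0.699). Ercc4 was higher by 0.80 ± 0.13 (adjusted p = 3.77e-05). After Ubn1 depletion 0 of the 57 were called in edgeR or DESeq2, where 3.09% of all genes were called in edgeR. Of the 57, 14 had an unadjusted p under 0.05 and 5 passed edgeR's adjusted p alone, against 7.76% of all genes.

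**Figure D5:**
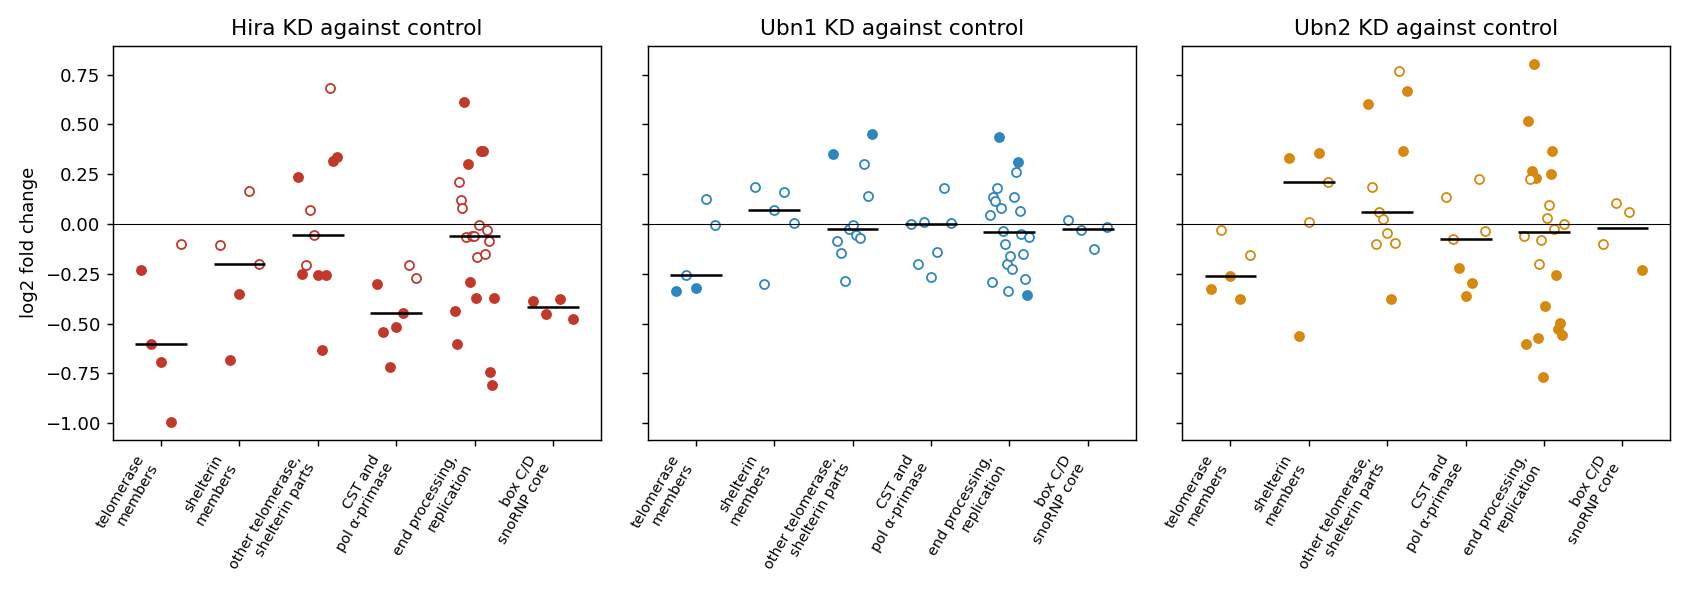
Log2 fold change against control of each gene in 6 groups, in 1 panel per depletion, with filled points for an adjusted p under 0.05, open points otherwise and a line at the group median. All groups are telomere-linked except the box C/D snoRNP core. After Hira depletion the 5 telomerase genes and the 7 CST and polymerase genes are all below 0, with medians of -0.60 and -0.45. The 4 box C/D snoRNP genes are also all below 0, with a median of -0.42, while the 22 end-processing genes spread to both sides. The 5 telomerase genes are all below 0 after Ubn2 depletion as well, with a median of -0.26. In the Ubn1 panel 4 of these 5 are below 0, with a median of -0.26.

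The genes whose profile was closest to that of Tert and Terf1 were found by the root mean square difference of mean-centred log2 CPM over the 8 libraries, among 16064 genes that averaged at least 1 CPM. For Tert they included Sgpp1 at 0.0530 and Fto at 0.0571, where Tert itself varied about its mean by 0.108. For Terf1, with 0.168 about its own mean, they were Ftsj3 at 0.0394, Dpy19l1 at 0.0404 and Ccz1 at 0.0495. Ftsj3 was at 268.2 and 246.0 CPM in control ESCs and 187.8 and 203.2 CPM after Hira depletion. A likeness to Terf1 is what chose it.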

How the data were processed

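mRNA was sequenced in 8 libraries, 2 each for the control and for the Hira, Ubn1 and Ubn2 depletions. The authors deposited raw read counts per gene in 3 tables, each with 1 depletion beside the same control libraries, whose values were identical (0 differing values) and were used once. The submitters' processing notes name Trim Galore, STAR, featureCounts and GRCm38. Their versions, the strand setting and the treatment of reads matching several places are not given in the sources used here. Of the 55418 symbols, 55233 matched 1 gene of GENCODE M21 for positions and exon lengths, and 185 did not.

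Counts as deposited were fitted with edgeR 4.0.16 (limma 3.58.1, R 4.3.3) on the 4 libraries of each comparison, with TMM normalization (factors 0.970 to 1.06), filterByExpr, quasi-likelihood tests and Benjamini-Hochberg adjustment over all genes. The quoted SE is the log2 fold change over the square root of the F statistic. CPM are counts per 1000000 of the TMM-scaled library total. The scripts were tested on simulated data. The 10 genes, the further lists and the tests were chosen with earlier results of these data known. All 10 genes are named, and of the further lists the called members, up to the 4 with the smallest adjusted p, beside Terc, Gar1, Wrap53, Terf2ip and Pot1b. For Tert and Terf1 the rule took the 3 closest profiles, of which 1 is not reported here. Alternatives were DESeq2 1.42.0, its size factors, 2 other filters, all 8 libraries in 1 fit, a replicate block with and without all libraries, the adjusted p alone, and each library left out. Upstream windows come from RefSeq on GRCm38.p6.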

Additional observations from a re-analysis of the deposited data

Results flagged for a closer look

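Tep1 is listed for a closer look because its level differed between the depletions when the depleted libraries were tested against each other with edgeR. It was lower after Hira than after Ubn2 depletion by a log2 difference of -0.60 (20.2 and 22.2 CPM against 30.2 and 34.2 CPM), and lower after Hira than after Ubn1 depletion by -1.10 (43.3 and 47.7 CPM after Ubn1 depletion). In each of these comparisons both Hira-depleted libraries lay below both libraries of the other depletion. Mean CPM of the depleted transcript fell from 93.5 to 10.2 for Hira, 48.5 to 23.8 for Ubn1 and 50.9 to 27.3 for Ubn2. The subunit and the depth of its depletion therefore cannot be told apart.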

How the results depend on the processing

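Over 42 pairs of a gene and a comparison (all against control, and the direct differences past the adjusted p), 461 of 504 values under alternatives kept their direction and side of the threshold, 25 gained a call, 6 lost one and 12 changed sign. The setting of the adjusted p alone is the main fit without the 1.5-fold threshold. It could only add calls and not change a sign, and most of the 25 gains came from it. The genes downregulated after Hira depletion numbered 2 to 4 with a library left out. After Ubn2 depletion they numbered 0 to 1, between Hira and Ubn2 depletion 0 to 2 (0 under a minimum of 10 counts), and between Ubn2 and Ubn1 depletion 0 to 1. By the adjusted p alone, 2 were lower after Ubn1 depletion, 4 lower and 2 higher after Ubn2 depletion, 6 lower after Hira than Ubn2, 5 lower after Hira than Ubn1 and 1 lower after Ubn2 than Ubn1 depletion. All genes called by it numbered 6644, 1426 and 7118 after Hira, Ubn1 and Ubn2 depletion, and 6641, 4582 and 3019 for Hira against Ubn2, Hira against Ubn1 and Ubn2 against Ubn1. For Ubn1 depletion DESeq2 called 331 genes against 568, and leaving out a library gave 350 to 688.

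The sign changes were of values near 0. With a library left out, Tert ranged from -0.22 to 0.0314 after Hira and -0.12 to 0.13 after Ubn1 depletion, Nhp2 from -0.0895 to 0.0267 after Ubn2 depletion, Terf1 from -0.0259 to 0.17 after Ubn1 and -0.0862 to 0.0991 after Ubn2 depletion (-0.0104 without a filter on low counts), Tinf2 from -0.10 to 0.11 after Ubn1 depletion, and Pot1b from -0.24 to 0.0806 after Hira, from -0.14 to 0.0887 after Ubn1 and from -0.0934 to 0.13 after Ubn2 depletion. Same-numbered libraries did not deviate together (r from -0.05 to 0.07 over 19264 genes), so the numbers were not taken to pair them. With the replicate block, 4 genes were downregulated after Hira depletion, and Tert after Ubn1 depletion was at 0.000325, or 0.000365 with all libraries in the fit. Among the 18 other direct differences, those that changed sign were Tert between Hira and Ubn1 (-0.20 to 0.04), Dkc1 between Ubn2 and Ubn1 (-0.09 to 0.10) and Terf2 between Hira and Ubn1 (-0.05 to 0.09). The cause of these shifts was not tested. With 2 libraries per group, the spread rests on few libraries.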

Other observations

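Regulators of Tert transcription were counted as a further list. Of its 7 members, Mycn and Mxd1 were upregulated after Hira depletion, at log2 fold changes of 0.69 ± 0.10 (SE, adjusted p = 1.41e-05) and 0.62 ± 0.17 (adjusted p = 0.00791), and after Ubn2 depletion, at 0.61 ± 0.09 (adjusted p = 1.22e-05) and 0.61 ± 0.17 (adjusted p = 0.00783). Over all genes tested, 10.8% were called higher after Hira and 9.59% after Ubn2 depletion. By the adjusted p alone, 2 of the 7 members were lower after Ubn2 depletion, against 19.1% of all genes. Of these, Klf4 went from 189.1 and 220.1 CPM in control ESCs to 130.1 and 144.6 CPM. Myc was at 36.2 and 47.7 CPM in control ESCs, and the Hira-depleted libraries disagreed, at 17.8 and 48.3 CPM. Mycn, which activates genes with E-boxes, was at 105.2 and 135.4 CPM in control ESCs, 182.6 and 211.4 CPM after Hira depletion, 131.9 and 131.8 CPM after Ubn1 depletion and 189.0 and 178.3 CPM after Ubn2 depletion. The Hira-depleted and Ubn2-depleted libraries lay above both control libraries and the Ubn1-depleted ones between the control libraries. Mxd1, which opposes Myc proteins at the same motif, was lower in abundance, at 6.38 to 11.5 CPM. The calls were lost for Mycn after Hira depletion without control replicate 1 (0.52) or Hira KD replicate 2 (0.58) and after Ubn2 depletion without control replicate 1 (0.43) or Ubn2 KD replicate 1 (0.57). For Mxd1 they were lost without control replicate 2 (0.49 after Hira and 0.48 after Ubn2 depletion) and, after Ubn2 depletion, without Ubn2 KD replicate 1 (0.47).

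Of the vault particle, with which Tep1 is shared, the major vault protein Mvp rose after Hira depletion from 43.0 and 41.2 CPM to 67.7 and 70.0 CPM (0.69 ± 0.09, adjusted p = 3.01e-06), opposite in direction to Tep1. The remaining member, Parp4, had a log2 fold change of 0.34 (adjusted p = 0.0806). Of all genes tested, 10.8% were called higher and 5.40% lower after Hira depletion. Mvp was also higher after Ubn2 depletion by the adjusted p alone, at 59.8 and 59.1 CPM, against 20.0% of all genes. Tep1 was lower there by the same rule. Of the 4 genes that attach telomeres to the nuclear envelope in meiosis, Majin was called lower after Hira depletion at -0.80 ± 0.31 (adjusted p = 0.0485). It was expressed at 1.61 to 3.41 CPM, was not called by DESeq2 (adjusted p = 0.122), and lost the call without control replicate 1 (-0.55) or without either Hira-depleted library (adjusted p of 0.0829 and 0.0969).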
